A study of Homo sapiens with 12 samples.

Results

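Metformin was compared with vehicle in SUM159 cells that carried an shRNA against Dicer. SUM159 is an established human triple-negative breast cancer line. The comparison used 6 of the 12 arrays of the series, those titled as Dicer knockdown, 3 with metformin and 3 without. On each array the total gene signal and the detection flag of every human microRNA name were used. The Dicer shRNA cells had been infected with a pLKO.1 lentiviral vector and expressed the shRNA stably, and they received PBS as vehicle or 0.5 mM metformin for 24 h. The other 6 arrays held cells with a scrambled control shRNA in the same vector under the same 2 treatments, again as 3 and 3. The labels call the replicates biological, and they do not say whether a line was a clone or a pool. The vehicle arrays lay on slide 1 and the metformin arrays on slide 2, so treatment and slide cannot be told apart in any value that follows. The source name of the Dicer shRNA group with metformin reads control, treated, against its title and characteristics, and the groups were taken from the titles. Dicer mRNA is not measured by a microRNA array, and the depth of the knockdown was not checked here.

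Dicer is the RNase that cuts hairpin precursors into the mature microRNA, a short RNA that guides silencing complexes to messenger RNAs. Target choice rests mostly on the seed, bases 2 to 8 of the mature strand, so microRNAs with the same seed form families. Most precursors are first released in the nucleus by Drosha, whereas mirtrons are typically released by splicing and the miR-320a precursor forms without Drosha. Dicer usually cuts these precursors too, but exceptions exist among names listed as mirtrons. How each listed microRNA is made was not tested. Metformin, a drug against type 2 diabetes, inhibits mitochondrial respiration and activates the energy sensor AMPK.

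Mature sequences of the microRNAs on which the results turn were taken from RefSeq (GRCh38.p14) by mature name, and 177 of the tested microRNAs matched and 31 did not. They are written from 5′ to 3′ with the seed in capitals. The first set fell with metformin and is ordered so that family members stand together.
miR-27a: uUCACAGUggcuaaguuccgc
miR-27b: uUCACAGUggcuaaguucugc
miR-23a: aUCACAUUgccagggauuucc
miR-23b: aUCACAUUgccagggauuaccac
miR-24: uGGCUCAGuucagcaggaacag
miR-125a-5p: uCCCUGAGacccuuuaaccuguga
miR-125b: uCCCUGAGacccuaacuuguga
let-7b: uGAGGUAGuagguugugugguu
let-7c: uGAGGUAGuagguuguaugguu
miR-25: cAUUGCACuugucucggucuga
miR-92a: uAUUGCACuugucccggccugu
miR-93: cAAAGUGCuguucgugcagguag
miR-221: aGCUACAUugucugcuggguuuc
miR-222: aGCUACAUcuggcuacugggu
miR-15b: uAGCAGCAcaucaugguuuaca
miR-29a: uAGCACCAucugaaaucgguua
miR-26a: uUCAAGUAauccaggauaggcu

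The second set was chosen because it rose or because it is nearly identical in sequence to a member that rose.
miR-320b: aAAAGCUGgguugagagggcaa
miR-320c: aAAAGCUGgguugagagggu
miR-320d: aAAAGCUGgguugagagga
miR-133a: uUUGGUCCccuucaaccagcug
miR-133b: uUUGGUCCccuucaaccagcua
miR-198: gGUCCAGAggggagauagguuc
miR-1249: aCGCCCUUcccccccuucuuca
miR-1228: uCACACCUgccucgcccccc
miR-1275: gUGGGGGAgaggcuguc
miR-1202: gUGCCAGCugcagugggggag

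Of 851 human names, 645 were detected on none of the 6 Dicer shRNA arrays and 116 on all 6. The vehicle arrays detected 149, 154 and 180 microRNAs (161 ± 16.6, SD, n = 3) and the metformin arrays 130 to 152, so that the mean number of detected microRNAs differed by -20 with metformin. The ranges overlap, and an exact two-sided permutation test of the means gave p = 0.2, where 0.1 is the smallest value 3 arrays against 3 allow. miR-923, a fragment of ribosomal RNA that is no longer listed as a microRNA, held 82.7% to 84.3% of the summed human signal with vehicle and 80.7% to 83.8% with metformin (exact permutation p = 0.3). Of the epithelial markers (the miR-200 family and miR-205) 1 of 6 was detected, miR-205, and the other 5 were at 0. All listed blood cell, nerve, liver and endothelial markers were at 0 on the 6 arrays. Of 56 names listed as placental and embryonic, in part by number range, 7 were detected. Their summed signals were 73.7 to 93.8 with vehicle and 81.5 to 93.9 with metformin. Among them, miR-513a-5p, miR-513b and miR-513c were detected on vehicle arrays alone. miR-513a-5p and miR-513b map to chromosome X, unlike miR-516a-5p, miR-520b and miR-520e on chromosome 19, so the sum is not of placental markers alone. Of 7 muscle markers 2 were detected, with summed signals of 0 to 6.52 with vehicle and 7.74 to 21.1 with metformin. Signals are given after each array was scaled to the 75th percentile of 98 microRNAs that all 12 arrays detected, and values under a floor of 3.01 were set to that floor for the tests. Signals of different microRNAs come from different probes and are not read as relative amounts. Sums, shares and differences across microRNAs serve to compare arrays, and a correlation between signal and change is description only.

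A change is the log2 difference metformin minus vehicle ± SE from the limma fit (n = 3 arrays a group), and a microRNA was called at a Benjamini-Hochberg adjusted p under 0.05. Among the microRNAs tested, those detected on all 3 arrays of at least 1 of the 4 groups, 38 were lower with metformin (18.3%), 13 were higher (6.25%) and 157 did not pass. The falls reached -3.18 and the rises 1.37. Of the 13 higher calls 8 were on the list of late-numbered entries, and the others were miR-320c, miR-198, miR-133a and the passenger strands miR-191* and miR-625*. The median change was 0 over all tested and 0.14 over the 116 detected on all 6 arrays, of which 24 fell (20.7%) and 11 rose (9.48%). Of those tested, 31 were undetected on all 6 arrays and have no change to measure. The 3 vehicle and 3 metformin arrays did not overlap for 77 of all tested (37%) and for 60 of the 116 (51.7%), of which 31 were higher and 29 were lower. Separation of the groups was complete for 37 of the 38 falls and 12 of the 13 rises, and miR-361-5p and miR-625* were the exceptions. The 6 arrays fitted alone, without the spread of the control shRNA arrays, gave 17 lower and 2 higher calls. The split of calls between lower and higher turned with the scaling, from 44 lower and 6 higher without scaling to 19 lower and 43 higher with the authors' series matrix.

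**Figure D1:**
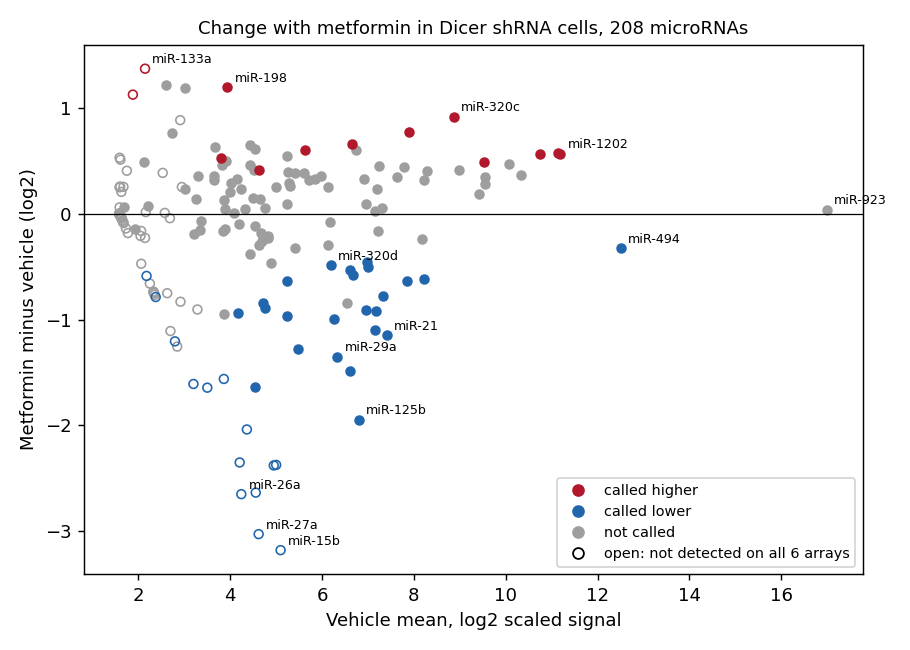
The mean log2 scaled signal of the 3 vehicle arrays is on the x axis and the log2 change metformin minus vehicle on the y axis, 1 point for each microRNA tested, with blue for called lower, red for called higher, grey for not called and open points for microRNAs not detected on all 6 arrays. The 38 lower calls reach -3.18 and the 13 higher calls reach 1.37.

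Loss of detection marked the largest falls. Of the 132 microRNAs detected on all 3 vehicle arrays, 16 were not detected on all 3 metformin arrays. 3 of these, miR-27a, miR-26a and miR-125a-5p, were detected on no metformin array. In the other direction, 7 microRNAs were detected on all 3 metformin arrays and on only 2 vehicle arrays, and no microRNA detected on all 3 metformin arrays had fewer than 2 vehicle detections. 42 microRNAs were detected on vehicle arrays alone, 26 of them on 1 array, 13 on 2 and 3 on all 3. Metformin arrays alone detected 11, 9 of them on 1 array and 2 on 2. Most of these detections thus rest on a single array. On the vehicle arrays the mean signals of miR-27a, miR-26a and miR-125a-5p were 24.6, 18.9 and 9.18, above the floor of 3.01.

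The miR-23, miR-27 and miR-24 group, made from paralogous clusters and known for roles in lipid metabolism and vessel growth, fell in all 5 of its members. miR-27a, which represses regulators of fat cell formation such as PPARG, had signals of 20.4, 25.1 and 28.97 with vehicle and was not detected on any metformin array. It was 8.16-fold lower with its undetected signals taken as the floor (adjusted p 1.9e-06, limma). miR-27b, with the same seed and 1 base different over its length, read 19.1, 23.8 and 28.6 with vehicle and 5.97 on metformin replicate 2, the only metformin array that detected it (change -2.64 ± 0.25). The vehicle arrays lay above every metformin array for both. miR-23b read 28.7, 33.04 and 34.5 with vehicle against 6.35 and 12.3 on metformin replicates 1 and 2, with no detection on replicate 3 (change -2.37 ± 0.38). miR-23a, which shares its first 18 bases, read 140.7, 130.5 and 161.7 with vehicle and 78.5, 76.8 and 73.0 with metformin (change -0.92 ± 0.14). miR-24 read 125.2, 144.5 and 159.7 with vehicle and 71.3, 82.3 and 50.1 with metformin (change -1.10 ± 0.25). Vehicle and metformin arrays were separate for all 5. The miR-23a call was lost in 2 and the miR-24 call in 3 of the 7 other scalings tried, always with the same direction.

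In the miR-15/16 family, whose shared seed targets BCL2 and cell cycle genes, miR-15b had a fitted change of -3.18 ± 0.27 (adjusted p 2.5e-05, limma), which the floor limits. Its signals were 26.3, 33.95 and 44.8 with vehicle and 5.93 on metformin replicate 2, with no detection on the other metformin arrays. Only 1 of the 6 family names on the array was detected in these cells. miR-16 and miR-15a, the other tested members, were undetected on all 6 arrays and have no measurable change.

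Of the miR-106b/25 cluster, which lies within MCM7, a replication gene, 2 of 3 members fell. miR-93 read 13.0, 21.4 and 22.7 with vehicle and 5.215 on metformin replicate 2 alone (change -2.35 ± 0.25). miR-25 read 38.8, 37.3 and 37.4 with vehicle and 19.3, 22.1 and 16.9 with metformin (change -0.97 ± 0.17). miR-106b was detected on vehicle replicates 2 and 3 at 8.44 and 14.6 and on no metformin array, and it did not pass (adjusted p 0.061, limma). Among the related miR-17/92 clusters, known as oncogenic and MYC-driven, 2 of 7 tested members fell and 4 of the 7 were undetected on the 6 arrays. miR-19b read 17.8, 41.5 and 39.8 with vehicle against 7.10 and 9.76 on metformin replicates 1 and 2 and no detection on replicate 3 (change -2.38 ± 0.42). miR-92a, with the seed of miR-25, read 212, 250.5 and 231 with vehicle and 155.5, 172.8 and 122.4 with metformin (change -0.63 ± 0.14). It lost its call in 2 of the 7 other scalings and without vehicle replicate 2 (-0.57).

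The let-7 family, which represses RAS genes, HMGA2 and LIN28 and marks differentiated cells, had 4 of its 9 names detected on the 6 arrays, and 2 of 6 tested members fell. let-7b read 77.2, 95.8 and 123.3 with vehicle and 33.1, 38.5 and 32.6 with metformin (change -1.49 ± 0.45). let-7c, 1 base different, read 15.1, 24.5 and 33.5 with vehicle and 6.90, 8.19 and 7.23 with metformin (change -1.64 ± 0.24). Vehicle and metformin arrays were separate for both, and vehicle replicate 1 was the lowest vehicle array for both. The let-7b call was lost in 4 of 7 other scalings and with 9 of the 12 arrays left out in turn, among them any Dicer shRNA array but vehicle replicate 1, any control shRNA array with vehicle and control shRNA metformin replicate 2 (-1.56 to -1.31, adjusted p 0.054 to 0.12, limma), whereas let-7c lost its call in 1 scaling. let-7a was detected on vehicle replicates 2 and 3 at 8.15 and 11.1 and on no metformin array, and it did not pass (adjusted p 0.068, limma). let-7f was detected on vehicle replicate 3 alone.

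Of the miR-99/100 and miR-125 families, which share clusters with let-7 genes, 4 of 5 members fell. miR-125b, a repressor of p53 and of several haematopoietic genes, read 85.0, 119 and 136 with vehicle and 31.2, 45.3 and 16.96 with metformin (change -1.95 ± 0.34). miR-125a-5p, with the same seed, read 8.03, 8.74 and 11.04 with vehicle and was undetected on the metformin arrays, 3.05-fold lower with these taken as the floor. miR-100 read 127, 127 and 121 with vehicle and 65.1, 78.7 and 57.1 with metformin (change -0.91 ± 0.27). Its call was lost in 3 of 7 scalings and with any Dicer shRNA array but metformin replicate 2, or any control shRNA array with vehicle, left out (-0.94 to -0.80). miR-99b changed by -0.53 ± 0.13, but its direction turned to 0.063 with the series matrix and its call was lost without vehicle replicate 2 (-0.49). miR-99a was detected on 1 vehicle array only.

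miR-29a, which represses collagens and DNA methyltransferases, was the only member of its family detected on all 6 arrays. Its signals were 73.9, 82.5 and 85.9 with vehicle and 34.1, 38.1 and 24.4 with metformin (change -1.35 ± 0.18, 2.55-fold lower, adjusted p 0.00058, limma). miR-29b and miR-29c, with the same seed, were detected on 1 and 2 vehicle arrays and on no metformin array, and neither passed. In the miR-30 and miR-26 families 1 of 6 tested members fell. That was miR-26a, a repressor of EZH2, which read 11.6, 23.3 and 24.96 with vehicle and was undetected with metformin, 6.28-fold lower with these signals taken as the floor. miR-30a changed by -0.29 ± 0.10 and miR-30d by -0.08 ± 0.09 and neither passed, but both were called higher with the series matrix, at 0.33 and 0.54.

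miR-221 and miR-222, which share a seed and repress the cell cycle inhibitor CDKN1B, both fell. miR-222 read 145.9, 172.7 and 164.9 with vehicle and 92.7, 96.0 and 92.1 with metformin (change -0.78 ± 0.13), with a narrow range on the metformin arrays. miR-221 read 70.5, 84.1 and 77.2 with vehicle and 36.8, 50.3 and 31.3 with metformin (change -0.99 ± 0.30), and its call was lost in 3 of 7 scalings and without vehicle replicate 2 or 3, metformin replicate 1 or 3 or any control shRNA array with vehicle (-0.99 to -0.84). The log2 difference miR-221 minus miR-222 was -1.06 ± 0.03 with vehicle and -1.27 ± 0.31 with metformin (SD, n = 3, exact permutation p = 0.4). miR-21, which is abundant in tumours and represses PDCD4, read 140.1, 177.3 and 195.4 with vehicle and 72.3, 100.6 and 61.7 with metformin (change -1.15 ± 0.27). Its groups did not overlap, and its call was lost in 2 scalings and without metformin replicate 3 (-0.99).

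Among immune-linked microRNAs, miR-146a, which dampens NF-kB signalling by repressing TRAF6 and IRAK1, read 15.6, 21.8 and 25.6 with vehicle against 5.73 and 7.27 on metformin replicates 1 and 2 and no detection on replicate 3 (change -2.04 ± 0.29). miR-155, induced by the same pathway, read 22.1, 26.6 and 21.4 with vehicle and 21.4, 22.3 and 20.9 with metformin, and it did not pass (change -0.11 ± 0.10). miR-130b changed by -0.89 ± 0.16, losing its call in 1 scaling. miR-181a and miR-181b changed by -0.51 ± 0.12 and -0.58 ± 0.14, and miR-181b turned to 0.014 with the series matrix. Both calls were lost without vehicle replicate 2 (-0.48 and -0.52) or metformin replicate 3 (-0.39 and -0.51), and that of miR-181b also without metformin replicate 1 (-0.54). miR-205, the epithelial marker, read 124.3, 123.0 and 128.5 with vehicle and 94.2, 105 and 76.8 with metformin (change -0.46 ± 0.13), losing its call in 3 scalings and without vehicle replicate 2 or 3, metformin replicate 1 or 3 or control shRNA vehicle replicate 3 (-0.48 to -0.33). Of smaller groups, miR-140-3p, a cartilage microRNA, changed by -1.64 ± 0.27 and miR-199a-5p, typical of mesenchymal cells, by -1.56 ± 0.24. miR-140-3p was detected on metformin replicate 2 alone and miR-199a-5p on metformin replicates 1 and 2.

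Some groups held no called member. miR-103, which targets Dicer mRNA, was detected on vehicle replicate 3 alone at 8.03 and did not pass, and its relative miR-107 was undetected on the 6 arrays. Of the p53-linked list only miR-34a was tested, and all 8 names were undetected in these cells. Of the metabolic list, miR-370 changed by 0.63 ± 0.24, miR-378 by -0.21 ± 0.15 and miR-33a, which lies within the sterol regulator SREBF2, by 0.26 ± 0.22, and none passed. On every array miR-33a and miR-33b* carry an identical signal, and the value belongs to the pair. miR-18b*, a passenger strand, had a change of 1.22 ± 0.50, larger than all but 1 of the called rises, and it did not pass. Vehicle replicate 1 read 13.1 against 2.20 and 5.56 on the other vehicle arrays.

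**Figure D2:**
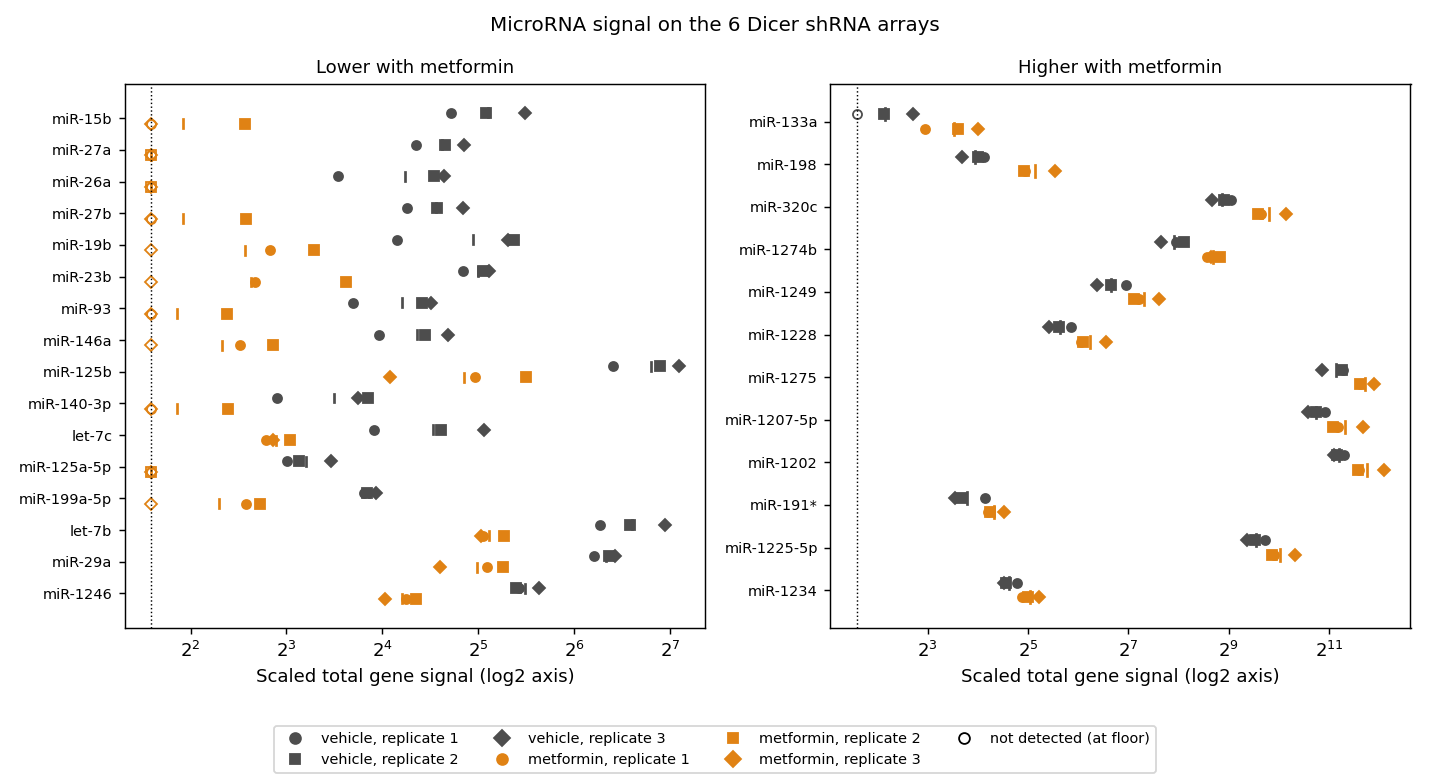
Scaled total gene signal (log2 axis) on each of the 6 Dicer shRNA arrays for the 16 largest called falls and the 12 called rises whose groups do not overlap, grey for vehicle and orange for metformin, with the replicate by symbol, vertical bars at group means and open symbols at the floor of 3.01 for arrays that did not detect the microRNA. miR-15b, at the top left, reads 26.3 to 44.8 with vehicle, and miR-27a and miR-26a lie at the floor on all 3 metformin arrays.

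The rises were smaller. miR-320c, of the miR-320 family, read 527, 481 and 405 with vehicle and 801, 764 and 1135 with metformin (change 0.92 ± 0.17, 1.89-fold, adjusted p 0.0026, limma). Its family did not move together. miR-320d, identical to miR-320c over the first 18 bases, read 70.9, 74.5 and 74.1 with vehicle and 51.4, 59.7 and 46.5 with metformin (change -0.49 ± 0.13), but turned to 0.15 with the series matrix and lost its call in 5 of 7 scalings and without vehicle replicate 2 or 3, metformin replicate 1 or 3 or control shRNA metformin replicate 1 (-0.48 to -0.40). miR-320b, identical to miR-320c over the first 19 bases, changed by -0.16 ± 0.13 and miR-320a by 0.09 ± 0.14, and neither passed. The log2 difference miR-320c minus miR-320d, which scaling by 1 factor per array does not change, was 2.68 ± 0.22 with vehicle and 4.08 ± 0.48 with metformin (SD, n = 3), without overlap (exact permutation p = 0.1, the smallest possible). The difference miR-320c minus miR-320b was 1.65 ± 0.04 with vehicle and 2.72 ± 0.47 with metformin, with the same p = 0.1 from the exact test. The shift of miR-320c against miR-320d was 1.40 on this scale, 0.66 after quantile normalization and 0.44 with the series matrix, and that against miR-320b 1.08, 0.58 and 0.47. How far probes for such near-identical sequences share signal was not tested.

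miR-198, which lies within FSTL1, read 17.3, 16.1 and 12.8 with vehicle and 30.8, 30.4 and 46.2 with metformin (change 1.20 ± 0.27, 2.30-fold). miR-133a, a muscle microRNA, was undetected on vehicle replicate 1, read 4.40 and 6.52 on the others and 7.74, 12.1 and 16.01 with metformin (change 1.37 ± 0.32). miR-133b, which differs from it by 1 base at the 3′ end, was detected on 1 metformin array only and did not pass. miR-1274b, whose sequence lies in a tRNA, read 245, 275 and 202 with vehicle and 380, 454 and 398 with metformin (change 0.78 ± 0.17). Vehicle and metformin arrays were separate for these 3 calls. With miR-320c, they are the 4 rises that stayed called under all 7 other scalings and with each array left out in turn. With the 6 Dicer shRNA arrays fitted alone, only miR-1274b and miR-198 stayed called.

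Of the other 9 rises, 7 were late-numbered entries and 2 were passenger strands. Of 31 tested names on the list of late-numbered entries, 8 rose and 3 fell, against 6.25% and 18.3% of all tested. Their median change was 0.32 against 0 over all tested, and 0.36 against 0.14 among those detected on all 6 arrays. miR-1249 read 123.1, 100.2 and 82.4 with vehicle and 149.1, 137.8 and 195.8 with metformin (change 0.66 ± 0.18). miR-1275 read 2483, 2438 and 1852 with vehicle and 3134, 3128 and 3817 with metformin (change 0.58 ± 0.16). miR-1202 read 2522, 2294 and 2188 with vehicle and 3108, 3040 and 4369 with metformin (change 0.57 ± 0.16). Metformin replicate 3 was the highest array of its group in 12 of the 13 rises, and vehicle replicate 3 was the lowest of its group in 11. The calls of miR-1249, miR-1275, miR-1202, miR-1228, miR-1225-5p and miR-1234 were lost without vehicle replicate 3 (0.36 to 0.52) or metformin replicate 3 (0.32 to 0.51), and all but that of miR-1275 also without vehicle replicate 2. The miR-1207-5p call was lost with 7 of the 12 arrays left out in turn (0.39 to 0.63), vehicle replicates 2 and 3, metformin replicates 1 and 3, control shRNA vehicle replicates 1 and 2 and control shRNA metformin replicate 3. miR-1275, miR-1202, miR-1207-5p and miR-1225-5p all turned below 0 with the series matrix, at -0.17, -0.15, -0.28 and -0.061. Against 6.25% and 18.3% of all tested, 3 of 14 tested names listed as mirtrons rose and none fell, with a median of 0.40. These were miR-1228 (0.60 ± 0.16), which lies within LRP1, miR-1225-5p (0.50 ± 0.14), within PKD1, and miR-1234 (0.42 ± 0.12). Passenger strands, the strand usually discarded, rose in 2 of 23 tested, against 6.25% of all tested, and fell in none. They were miR-191* (0.53) and miR-625* (1.13), and each lost its call with 10 of the 12 arrays left out in turn, at 0.41 to 0.59 and at 0.68 to 1.28. The miR-191* call was kept only without vehicle replicate 1 or control shRNA vehicle replicate 1, and the miR-625* call only without vehicle replicate 3 or metformin replicate 2. Entries known as fragments of other RNAs went both ways: of 9 tested, miR-1274b rose, miR-1246 (-1.28 ± 0.16) and miR-1308 (-0.62 ± 0.20) fell and 6 did not pass. The miR-1308 call was lost in 5 of 7 scalings and without 8 of the 12 arrays, each in turn.

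Single arrays carried part of these calls. With metformin replicate 3 left out, 28 lower and 4 higher calls were left, and with vehicle replicate 3 left out 31 and 5. Without vehicle replicate 2 there were 27 and 6, and without vehicle replicate 1, which correlated least with its group (r 0.956 and 0.962 across microRNAs, against 0.990 between the other vehicle arrays), 46 and 26. Leaving out replicate 3 of the control shRNA group with vehicle gave 32 and 22. That array enters only through the shared spread, scaling, floor and detection filter. Of the 38 falls, 25 stayed called with each Dicer shRNA array left out in turn, and 17 of these also under all 7 other scalings. The 17 were miR-15b, miR-19b, miR-23b, miR-26a, miR-27a, miR-27b, miR-29a, miR-93, miR-125a-5p, miR-125b, miR-140-3p, miR-146a, miR-199a-5p, miR-222, miR-324-3p, miR-342-3p and miR-1246. Of the 17, miR-15b, miR-19b, miR-23b, miR-26a, miR-27a, miR-27b, miR-93, miR-125a-5p, miR-140-3p, miR-146a and miR-199a-5p were not detected on every metformin array. Undetected values lie at the floor under every scaling, where errors are understated, so the other scalings do not test them. With the 6 Dicer shRNA arrays fitted alone, miR-19b, miR-23b, miR-125b, miR-140-3p, miR-146a, miR-199a-5p and miR-324-3p among the 17 lost their calls. Direction alone held for 34 of the 38 falls and 9 of the 13 rises over the 7 scalings.

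**Figure D3:**
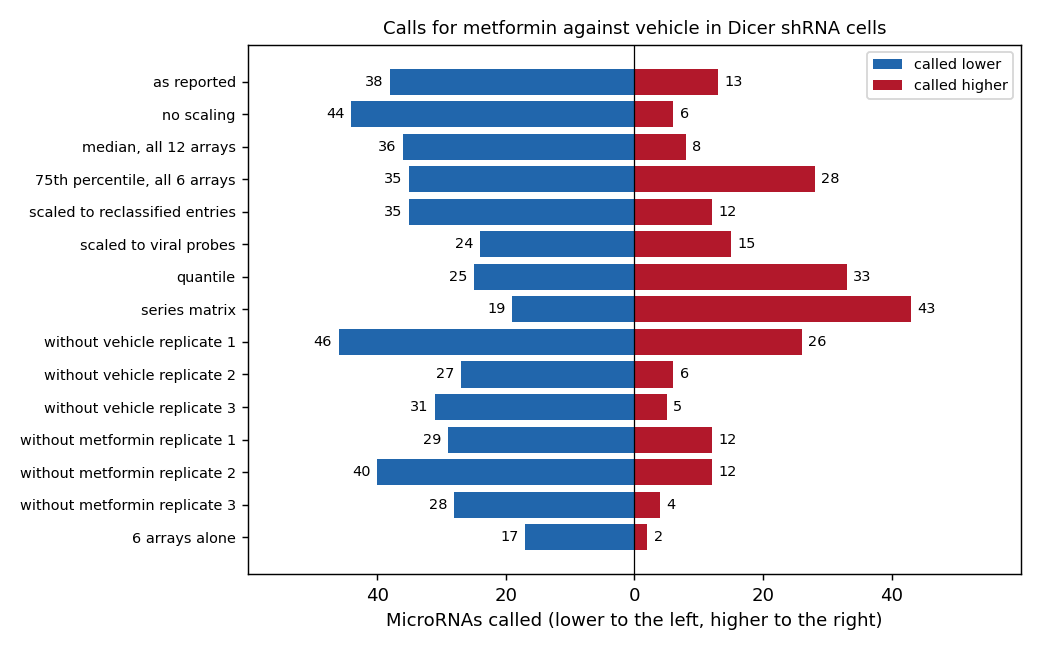
Number of microRNAs called lower (blue, to the left) and higher (red, to the right) with metformin in Dicer shRNA cells, for the setting reported and for 7 other scalings, each Dicer shRNA array left out and the 6 arrays fitted alone. Lower calls run from 17 to 46 and higher calls from 2 to 43.

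Calls that shared a seed were mostly lower, as were 38 of all 51 calls. Of 20 seeds with more than 1 tested microRNA, 14 held a call and 9 held more than 1 call. In 8 of the 9 all calls were lower. The ninth was the AAAGCUG seed of miR-320, with miR-320c higher and miR-320d lower. Paired falls were -1.49 and -1.64 for let-7b and let-7c and -0.51 and -0.58 for miR-181a and miR-181b, against -0.92 and -2.37 for miR-23a and miR-23b. Differences within pairs were not tested.

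Genes of microRNAs that lie close together were grouped where neighbours on a strand were within 10 kb (GRCh38.p14). Of 30 such groups with more than 1 tested microRNA, 19 held a call and 9 held more than 1, all lower, beside 38 lower among all 51 calls. The array cannot assign a mature microRNA with several gene copies to a copy, so some microRNAs count in 2 groups. Among them are the called pairs miR-181a with miR-181b and miR-19b with miR-92a. On the plus strand of chr9:95085265-95086085, within AOPEP, miR-23b, miR-27b and a copy of miR-24 all fell. On the minus strand of chr19:13836289-13836651 miR-23a, miR-27a and the other copy of miR-24 fell, and the passenger strand miR-23a* (0.01) did not pass. On the minus strand of chr7:100093571-100094063, within MCM7, miR-25 and miR-93 fell. On the plus strand of chr19:51692618-51693327, within SPACA6, miR-99b and miR-125a-5p fell, while miR-125a-3p from the same hairpin changed by 0.33 ± 0.19 and did not pass. On the minus strand of chrX:45746180-45747056, in no protein-coding gene, miR-221 and miR-222 fell. Of the single genes, miR-15b lies within SMC4, miR-21 within VMP1, miR-140 within WWP2 and the copies of miR-26a within CTDSPL and CTDSP2.

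The base composition of the mature strand differed between calls, as a description without a test. Over the 92 matched microRNAs detected on all 6 arrays, GC content had a median of 67.1% in those called higher, 47.8% in those called lower and 59.1% in the rest. Spearman's rho between GC content and change was 0.46 over these 92, which share arrays and probe chemistry, and rho between the vehicle signal and the change was -0.10. Below 45% GC, 4 of 12 fell and none rose. From 45% to 60%, 17 of 42 fell and 2 rose. From 60% to 75%, 2 of 26 fell and 4 rose, and at 75% and above 2 of 12 rose and none fell. Features that name no human microRNA moved too. The 4 hur control features detected on all 6 arrays had lower means on the metformin arrays, by a median of -0.999, and the groups overlapped for 1 of them, hur_1 (-0.30). The control feature mr_1 was lower without overlap (-0.83), and miRNABrightCorner30 had a higher mean with metformin (0.41), with overlap. Viral microRNA probes with signal on all 6 arrays numbered 11, and the metformin mean was above the vehicle mean for 8 of them and below it for 3, with a median difference of 0.25 (log2). The part of slide, probe composition and these control features in the calls was not tested.

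**Figure D4:**
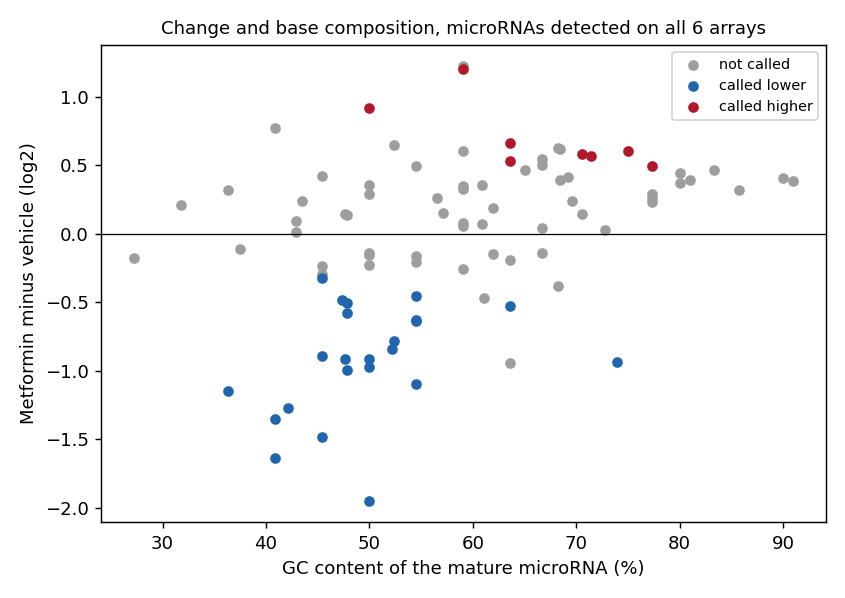
GC content of the mature microRNA (%) on the x axis and log2 change metformin minus vehicle on the y axis for the 92 microRNAs with a matched sequence detected on all 6 arrays, with blue for called lower, red for called higher and grey for not called. Median GC content is 47.8% for the lower and 67.1% for the higher calls.

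Control shRNA cells, treated alike and lying on the same slides, were set beside Dicer shRNA cells to show where the response to metformin differed. In control shRNA cells 84 of the tested microRNAs were lower (40.4%) and 99 higher (47.6%), and all 51 microRNAs called in Dicer shRNA cells were called there in the same direction. The difference between the changes, the interaction, was called for 159 of the tested microRNAs (76.4%), 77 with a positive (37%) and 82 with a negative value (39.4%). That split turned with scaling to the median of viral probes, to 114 positive and 21 negative. Of the 159, 27 were undetected on all 6 Dicer shRNA arrays and another 19 on all metformin arrays of both lines, and for these the value reflects the level in the other groups against a shared floor. A further 3 were undetected on all vehicle arrays of both lines, which leaves 110, 39 positive and 71 negative. The interaction was called for 34 of the 38 falls and 12 of the 13 rises, on the scale reported each time with the smaller fitted change in Dicer shRNA cells. For 4 of the 34 falls, miR-27a, miR-26a, miR-125a-5p and miR-361-5p, no metformin array of either line had signal, so the sizes of the falls cannot be compared. miR-15b, miR-27b and miR-140-3p had signal on 1 metformin array of Dicer shRNA cells and on none of control shRNA cells. Their interaction thus rests mostly on vehicle levels. For the falls the median fitted change was -1.05 in Dicer shRNA and -4.34 in control shRNA cells, and for the rises 0.60 and 1.80. The medians of the falls include values that the floor limits. let-7c, miR-19b, miR-23b and miR-146a, for example, were detected on no control shRNA array with metformin. miR-29a changed by -1.35 ± 0.18 in Dicer shRNA and by -6.27 ± 0.18 in control shRNA cells, an interaction of 4.92 ± 0.25 (adjusted p 1.1e-07, limma). In control shRNA cells with metformin miR-29a was detected on replicate 2 alone, at 4.08, so the floor limits its change and error there. miR-21, detected on all arrays of both lines, changed by -1.15 and -5.76. miR-320c changed by 0.92 ± 0.17 and 3.24 ± 0.17, and miR-1275 by 0.58 and 3.29. The floor caps the falls of dim microRNAs, and 22 of the 24 falls and 10 of the 11 rises detected on all 6 Dicer shRNA arrays also passed the interaction. The 5 calls that did not pass it were miR-1274b, miR-324-3p, miR-423-3p, miR-494 and miR-658. miR-1274b changed by 0.78 ± 0.17 and 1.11 ± 0.17 in the 2 lines, an interaction of -0.33 ± 0.24 (adjusted p 0.21, limma). A slide effect equal in both lines would cancel in the interaction, whereas one that differs with the level would not, and array position also went with the line on each slide.

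**Figure D5:**
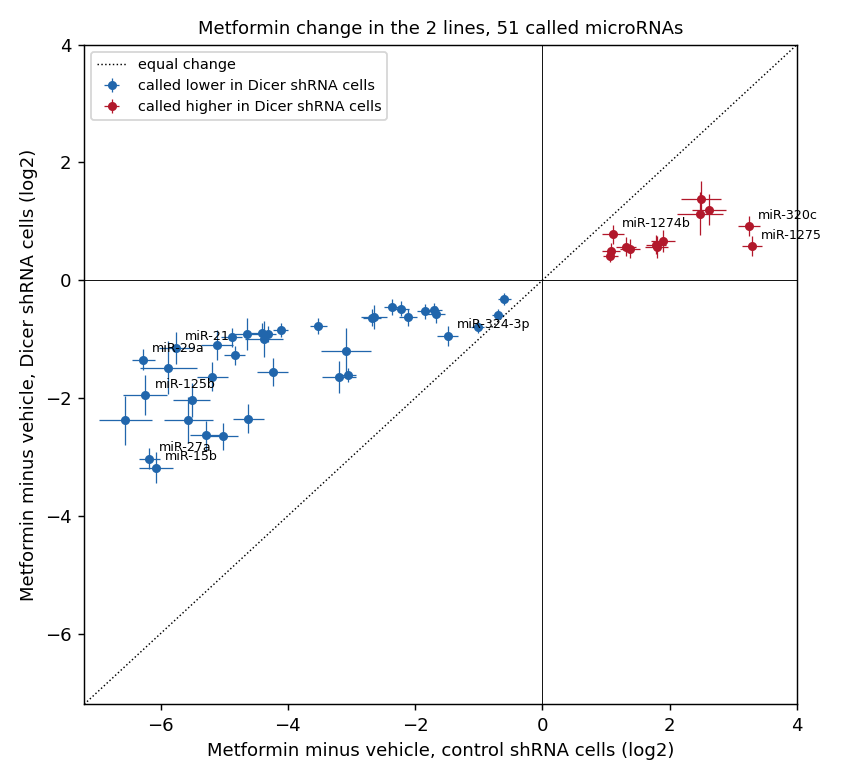
Log2 change metformin minus vehicle in control shRNA cells (x axis) and in Dicer shRNA cells (y axis) for the 51 microRNAs called in Dicer shRNA cells, with standard errors and a dotted line of equal change. For 46 of the 51 the interaction passed, on the scale reported all with the smaller fitted change in Dicer shRNA cells. Of these, 4 had no signal on the metformin arrays of either line.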

How the data were processed

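Agilent human microRNA arrays (1 colour, Cy3) measured total RNA of 12 samples. Per the file headers, the deposited array files give every name a linear intensity, the total gene signal, and a detection flag. Agilent Feature Extraction 9.1 is the tool named by the submitters' processing notes. How background was treated is not given in the sources used here, and the labels' protocol describes an mRNA kit. Undetected names carry an intensity of 0.1 in these deposited files. As an alternative, log2 values from the authors' series matrix were used, which are 0 where nothing was detected and whose normalization and centring stay unknown. Precision is limited by the small number of arrays, 3 in each group.

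Scaling used the 75th percentile of the 98 human microRNAs that all 12 arrays detected (factors 0.869 to 1.20). The floor of 3.01 (log2 1.59) is the 5th percentile of detected signals, as a median over arrays, and it was applied before log2. limma 3.58.1 (R 4.3.3) fitted 4 group means to 208 microRNAs, those that all 3 arrays of some group detected, with 8 residual and 1.85 prior degrees of freedom and Benjamini-Hochberg adjustment over the 208. Errors are understated for groups that lie at the floor. Where no array of a group detected a microRNA, its fold is taken against the floor, and it is a lower bound only if the undetected level lies under the floor. The floor is not the detection limit of a single probe: miR-149 was undetected on vehicle replicate 2 and read 18.7 and 8.13 on vehicle replicates 1 and 3. The fit was tested on simulated data. Tables used Python 3.11.15, pandas 2.3.3, scipy 1.17.1 and matplotlib 3.10.9.

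Named microRNAs are up to 16 calls per direction with the largest changes and no overlap, a set of always named ones, up to 4 members of each list and up to 10 interaction calls per direction; others were named after their values were seen. The members, lists and tests were chosen with earlier results of these data known. No replicate pair held an identical value (132 microRNAs shared by vehicle replicates 1 and 2, for example), and pair differences exceeded the stated signal errors (root mean square z 1.15 to 2.51). Alternatives covered the scaling, floor, filter, arrays in the fit, priors, array weights, replicate block, series matrix and arrays left out. 2 were added after seeing the data: leaving out replicate 3 of both groups, and scaling to the mean log2 of the microRNAs detected on all 6 Dicer shRNA arrays without miR-923.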

Additional observations from a re-analysis of the deposited data

Results flagged for a closer look

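The response to metformin differed between the lines for 159 microRNAs by the interaction term of limma, the change in Dicer shRNA minus that in control shRNA cells. Of these, 27 were undetected on all 6 Dicer shRNA arrays and another 19 on all metformin arrays of both lines, and their values cannot show a difference in the size of a fall. Among the falls detected on at least 1 metformin array of Dicer shRNA cells the interaction was positive, with the smaller fitted fall there. It was 2.89 for miR-15b, 2.65 for miR-27b, 4.17 for miR-19b and 3.19 for miR-23b. For miR-93 it was 2.27, for miR-146a 3.47, for miR-125b 4.29, for miR-140-3p 1.56, and for let-7c 3.55. For miR-199a-5p it was 2.68, for let-7b 4.39, for miR-29a 4.92 and for miR-1246 3.56. Other positive values were 4.62 for miR-21, 4.01 for miR-24, 3.91 for miR-25 and 3.73 for miR-100. miR-15b, miR-27b and miR-140-3p had signal on 1 metformin array of Dicer shRNA cells and on none of control shRNA cells. Their values thus rest mostly on vehicle levels above the shared floor and do not compare the sizes of falls. For 5 microRNAs no metformin array of either line had signal, and the value is the difference in vehicle level above the shared floor: 3.15 for miR-27a, 2.36 for miR-26a, 1.45 for miR-125a-5p, 3.73 for miR-103 and 4.34 for miR-19a, the last 2 not called in Dicer shRNA cells.

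Among the rises the interaction was negative on the scale reported, with the smaller fitted rise in Dicer shRNA cells. Scaled to the median of viral probes, the median interaction over all tested moved from -0.53 to 0.94. The sign of the smaller values here can thus turn with the scaling. The interaction was -1.11 for miR-133a, -1.41 for miR-198, -2.32 for miR-320c, -1.23 for miR-1249, -1.18 for miR-1228, -2.71 for miR-1275 and -1.23 for miR-1207-5p. For miR-1202 it was -0.75, for miR-191* -0.84, for miR-1225-5p -0.58 and for miR-1234 -0.65. MicroRNAs that did not pass in Dicer shRNA cells but had a negative interaction were miR-370 (-2.72), miR-583 (-2.49), miR-708 (-2.46), miR-630 (-2.29), miR-557 (-2.23), miR-1183 (-2.15) and miR-664 (-2.11). miR-10b* (-2.17) was undetected on all 6 Dicer shRNA arrays, so it has no change there and its value is that of control shRNA cells alone.

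Probes for viral microRNAs, which these cells are not labelled as carrying, gave signal outside the human names. Between the groups, 3 of them did not overlap and were higher on the metformin arrays: hcmv-miR-UL70-3p by 0.50, kshv-miR-K12-10b by 0.69 and kshv-miR-K12-3 by 0.43 (log2).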

How the results depend on the processing

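Against 51 calls (13 higher, 38 lower), alternative settings gave other counts, and beyond the construction of a setting the cause was not tested. Testing all 851 names without a detection filter gave 24 calls (1 higher, 23 lower), and the 6 Dicer shRNA arrays alone gave 19 (2 and 17). Array weights gave 82 (32 higher). Higher calls numbered 6 without scaling, 6 with the 75th percentile over all human names, which equals the undetected value of 0.1 on every array and so scales nothing, 33 after quantile normalization, 8 with the median, 28 with the 75th percentile over microRNAs detected on all 6 Dicer shRNA arrays and 43 with the series matrix. Lower calls numbered 25 after quantile normalization, 24 with the median of viral probes, 19 with the series matrix and 25 among microRNAs detected on all 6 Dicer shRNA arrays. Of the settings added later, leaving out replicate 3 of both groups gave 28 (3 and 25), and the mean log2 scaling gave 28, 17 of them lower. These scalings moved the median change of the 116 microRNAs detected on all 6 arrays from -0.01 to 0.36, against 0.14 as reported.

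Leaving out 1 array at a time gave 32 to 72 calls, 4 to 26 higher and 27 to 46 lower. The count of higher calls moved by over 1.5 times without vehicle replicate 1 (26), 2 (6) or 3 (5), metformin replicate 3 (4) or control shRNA vehicle replicate 3 (22), and the total without vehicle replicate 2 (33) and metformin replicate 3 (32). The main fit did not pair samples by replicate number. Deviations of same-numbered arrays correlated at 0.44, 0.32 and -0.11 over 116 microRNAs, and those of differently numbered arrays at -0.57 to 0.59. With 3 arrays a group these values cannot decide whether the numbers pair the samples. With the replicate number as a block, 47 were called on 12 arrays (11 higher, 36 lower) and 3 on the 6 arrays alone (1 higher, 2 lower).

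The interaction, 159 calls (77 higher, 82 lower), stayed within 1.5 times these counts with 1 array left out. It gave 89 calls (30 higher) among microRNAs detected on all 6 Dicer shRNA arrays, 114 higher and 21 lower calls with the median of viral probes and 51 lower calls without a filter.

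With the series matrix miR-1275 (-0.17), miR-1207-5p (-0.28), miR-1202 (-0.15) and miR-1225-5p (-0.061) turned below 0, as did miR-1202 after quantile normalization (-0.055). miR-30a (0.33), miR-30d (0.54), miR-99b (0.063), miR-181b (0.014) and miR-320d (0.15) turned above 0. Signals near the floor limit the falls, since values under 3.01 have no order.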
